A study of Mus musculus with 4 samples.

Results

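The 82 genes described here are nuclear-encoded genes grouped by symbol with the mitochondrial respiratory chain and ATP synthase. They were measured in single colonic monocytes and macrophages of chow-fed and high-fat diet (HFD)-fed mice. The rule takes them by gene symbol: every gene whose symbol begins with Ndufa, Ndufb, Ndufc, Ndufs, Ndufv, Uqcr, Cox4i, Cox5, Cox6, Cox7, Cox8 or Atp5, together with Sdha to Sdhd, Cyc1, Cycs and Usmg5. Of the 11820 genes in the file, the 82 members comprise 36 genes of complex I, 4 of complex II, 9 of complex III, cytochrome c (Cycs), 14 of complex IV and 18 of complex V. Complexes were assigned by symbol too, so a member need not be a structural subunit of its complex. Ndufa4 was counted with complex IV, where current nomenclature places it. The rule dropped 3 pseudogene or non-coding rows and 8 complex I assembly factors. Cox4i2, Cox6a2, Cox7b2, Cox8b, Cox8c and Ndufa4l2 were not analysed here.

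The respiratory chain sits in the inner mitochondrial membrane. Complex I (NADH dehydrogenase) and complex II (succinate dehydrogenase) pass electrons to ubiquinone, complex III hands them to cytochrome c, and complex IV (cytochrome c oxidase) reduces oxygen. The proton gradient built on the way drives complex V, the ATP synthase. Most subunits are encoded in the nucleus, and a small set of core subunits is encoded by the mitochondrial genome (mt- genes). In macrophages the balance between glycolysis and oxidative phosphorylation is known to differ between inflammatory and tissue-resident states.

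The mice were C57/Bl6N males, 6 to 7 weeks old, fed chow (chow 9 and chow 11) or a coconut-based HFD with 60% fat (HFD 1 and HFD 3) for 1 week. All 4 carried no further allele or treatment in the labels. Lamina propria cells of each mouse were sorted as live CD45+ cells, negative for lineage markers and CD24, positive for CD11b and for Ly6C or CD64, and loaded in a separate well, so mouse and well cannot be told apart. The deposited counts of unique molecular identifiers (UMIs, counted transcripts) held 904, 2002, 966 and 1548 cells in chow 9, chow 11, HFD 1 and HFD 3, with a median of 3926, 3747, 3803.5 and 3266 UMIs per cell. Of the 21188579 UMIs, 2.20% came from members, and 23 cell barcodes occurred in more than 1 mouse.

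Cells were divided into 6 clusters numbered by rising C1qa, with the members and the mt- genes left out of the clustering. P1 to P5 are the study's names for stages that arise from Ly6C-high monocytes, from CCR2-positive pro-inflammatory to CCR2-negative resident macrophages. The C1q genes were chosen here as markers of the resident end. Cluster 1 was P1-like, with 1649 CPM (counts per 1000000 UMIs) of the monocyte marker Ly6c2 and 177 CPM of the complement gene C1qa. Clusters 4, 5 and 6 were P5-like, with C1qa at 6911, 7331 and 7839 CPM and Ly6c2 at 11.7, 8.55 and 39.1 CPM. Their Ccr2 was at 407, 95.3 and 276 CPM, against 1007 CPM in cluster 1 and 647 and 586 CPM in clusters 2 and 3. Clusters 4 and 6 thus kept Ccr2 transcripts, and P5-like here means high C1qa with low Ly6c2, not absence of Ccr2. Clusters 2 and 3 lay between cluster 1 and the P5-like clusters, with C1qa at 871 and 3970 CPM. They stayed unnamed because their leading genes (Cd209a, Krt8 and Saa3 in cluster 2, Igha, AA467197 and Jchain in cluster 3) go beyond the fixed markers. Their cells were unevenly spread over the diets. Cluster 1 held 107, 104, 317 and 399 cells in the order chow 9, chow 11, HFD 1, HFD 3. Cluster 2 held 26, 37, 248 and 541 cells and cluster 3 held 60, 107, 256 and 527. Clusters 4, 5 and 6 together were mostly chow cells, and the HFD mice contributed between 23 and 55 cells to each of them. A mouse's cells are not replicates, so all tests compare UMI sums per mouse, with 2 mice per diet. In all values below, mice are given in the order chow 9, chow 11, HFD 1, HFD 3.

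Most nuclear-encoded subunits are housekeeping genes, and a few regulators are known to bind many of their promoters, among them nuclear respiratory factor 1 (NRF1), ETS factors such as GABP, and YY1. RefSeq promoter windows (GRCm38.p6, 250 bases before to 50 after the annotated start) were found for 69 of the 82 members. The letters GCGCA and GCGC with any base between them (NRF1), CCGGAAG (ETS) and AAGATGGC (YY1) were searched on both strands. The NRF1 letters occurred in 17 of the 69 members (24.6%) against 5.19% of all 27025 genes with a window. CCGGAAG occurred in 17 (24.6% against 9.93%) and AAGATGGC in 10 (14.5% against 3.19%). At least 1 of the 3 was present in 38 members (55.1%) against 16.4% of all genes. No member window had matches of different motifs that shared a base. By complex, the NRF1 letters were in 7 of 32 members of complex I, 2 of 3 of complex II, 1 of 5 of complex III, 1 of 12 of complex IV and 6 of 16 of complex V. The median GC content was 58.5% in the member windows and 52.75% in all windows, and its part in these shares was not tested. A match is a stretch of letters and not a shown binding site. Examples are given with at least 1 from each complex, and for Atp5j, which held letters of 2 motifs in adjoining stretches. Motif letters are in capitals, 5′ to 3′ on the strand of the gene, which is the minus strand in each.
Ndufa5 (complex I), NRF1 letters, chr6:24527698-24527725: gtgtgagctGCGCAGGCGCaaatctacc
Sdhd (complex II), NRF1 letters, chr9:50603910-50603937: cgctggggtGCGCACGCGCggtggcagc
Sdhd, ETS letters in reverse complement, chr9:50603879-50603905: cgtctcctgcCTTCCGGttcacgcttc
Uqcrh (complex III), ETS letters in reverse complement, chr4:116075071-116075090: gtatgccgcaCTTCCGGcca
Cox6a1 (complex IV), NRF1 letters, chr5:115349057-115349084: ggataaagtGCGCAGGCGCtggagttcc
Atp5c1 (complex V), NRF1 letters, chr2:10080433-10080458: tgagctcccGCGCACGCGCactgagt
Atp5k (complex V), NRF1 letters, chr5:108434431-108434458: ttcactgcgGCGCATGCGCctttctggc
Atp5j (complex V), YY1 letters, chr16:84835047-84835074: aagtgtaggaAAGATGGCggagtcttag
Atp5j, ETS letters, chr16:84835021-84835047: gctgagggacCCGGAAGcacttaccct
The windows of Cycs, Uqcrfs1 and Cox7a2 held none of these letters, which says only that the letters are not in these windows.

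The first question was whether the share of a cell's transcripts that encode the respiratory chain differed between diets. Over all cells of a mouse, members summed to 16878, 15029, 28816 and 30622 CPM. The means were 15954 ± 1308 CPM on chow and 29719 ± 1277 CPM on HFD (SD, n = 2 mice each), a ratio of 1.86. The 2 HFD mice lay well above the 2 chow mice. With 2 mice per diet the smallest exact permutation p is 0.33, so no such test of these sums can pass a threshold. When the 6 clusters of each mouse were given equal weight, the values were 19364, 17699, 24263 and 24984 CPM, so the diets still did not overlap and the distance was smaller.

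Within every cluster each HFD mouse had a larger member sum than either chow mouse. In cluster 1 (P1-like), members summed to 23937, 21954, 29535 and 27016 CPM, a ratio of the diet means of 1.23. In cluster 2 they summed to 23136, 20983, 32084 and 34307 CPM (ratio 1.50), and in cluster 3 to 20636, 19819, 29897 and 31222 CPM (ratio 1.51). In the P5-like clusters the ratios were below those of clusters 2 and 3, and that of cluster 6 was above that of cluster 1. Cluster 4 had 16839, 14210, 16956 and 18096 CPM (ratio 1.13), with chow 9 and HFD 1 almost level. Cluster 5 had 14553, 13341, 16430 and 17582 CPM (ratio 1.22), and cluster 6 had 17082, 15887, 20676 and 21681 CPM (ratio 1.28). These are shares of a cell's transcripts. Fewer transcripts of other genes and more transcripts of these genes give the same share.

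**Figure D1:**
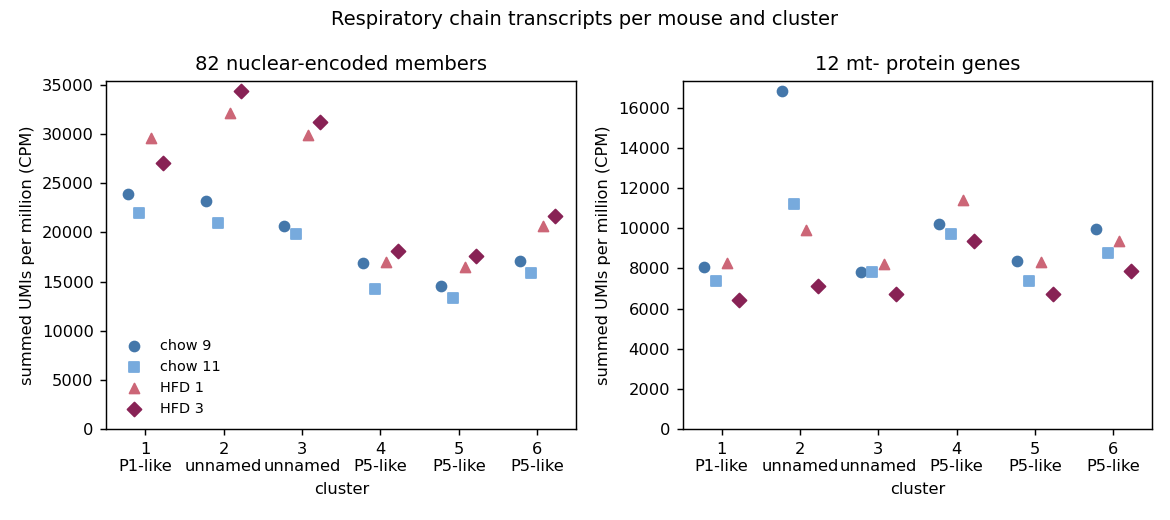
Summed CPM (counts per 1000000 UMIs) of the 82 members (left) and of the 12 mt- protein genes (right) in each cluster, 1 point per mouse. For the members, the HFD mice lie above the chow mice in all 6 clusters, by the least in cluster 4 (16956 against 16839 CPM), while the mt- genes overlap between diets in every cluster except cluster 2, where the HFD mice are lower.

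Each complex followed the same order in the unnamed clusters. In cluster 3, complex I summed to 6053, 5770, 8760 and 9087 CPM, complex III to 2780, 2555, 3804 and 3911 CPM, and complex IV to 5666, 5219, 8497 and 8889 CPM. Complex V summed to 5484, 5502, 7850 and 8120 CPM there, and complex II, the complex with no mitochondrially encoded subunit, to 549.9, 610.4, 731.9 and 964.4 CPM. The ratio of the diet means in cluster 3 ranged from 1.45 for complexes III and V to 1.60 for complex IV. In cluster 1 it ranged from 1.18 for complex IV to 1.35 for complex II. In the P5-like clusters the diets overlapped for complexes III and IV in cluster 4 and for complex II in cluster 5.

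Several values moved with diet beside the members. Malat1, a nuclear non-coding RNA, was lower in both HFD mice in clusters 1, 2, 3, 5 and 6, from 31546 and 29402 to 15217 and 14894 CPM in cluster 2. Neat1, another nuclear RNA, was lower in both HFD mice in clusters 1, 2, 3 and 5, for example at 1503, 1343, 837 and 656 CPM in cluster 2. The median depth was higher in both HFD mice in clusters 1, 2 and 3, with 2697, 2731.5, 3818 and 2886 UMIs per cell in cluster 1, 1398, 1510, 2929 and 2731 in cluster 2 and 3910, 4029, 5095.5 and 4484 in cluster 3. It was lower in both HFD mice in clusters 4 (3343, 3323, 2085 and 2619), 5 (4781, 4505, 3714.5 and 4481) and 6 (4023.5, 3578, 3403.5 and 3374). The summed level of the 3 measured B and plasma cell markers (Cd79a, Igha and Jchain) was lower in both HFD mice in all 6 clusters. It came to between 26634 and 38098 CPM in the chow mice and between 2774 and 7386 CPM in the HFD mice of cluster 3, and to 68075 CPM in chow 11 of cluster 2 against 711, 152 and 98.2 CPM in the others. In cluster 6 it was 6344, 3948, 136 and 171 CPM, and in clusters 1, 4 and 5 it lay between 216 and 842 CPM in the chow mice and between 87.5 and 207 CPM in the HFD mice.

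Other cell types were followed by marker lists, summed in the order chow 9, chow 11, HFD 1 and HFD 3. The 4 dendritic cell markers (Zbtb46, Flt3, Xcr1 and Cd209a), all in the file, were lower in both HFD mice in cluster 3 alone, at 133 and 227 CPM on chow and no more than 30.5 CPM on HFD. The 4 epithelial markers (Epcam, Krt8, Krt19 and Reg3b) were higher in both HFD mice in clusters 3 (0, 2.18, 16.0 and 14.4 CPM), 4 (1.67, 6.68, 37.5 and 12.5 CPM) and 5 (3.26, 5.26, 12.2 and 37.9 CPM), with Epcam at 0 in clusters 4 and 5. Their highest level was in cluster 2, where the diets overlapped (0, 397, 50.6 and 449 CPM). The 2 of 4 neutrophil markers in the file (S100a8 and Csf3r) were higher in both HFD mice in clusters 1 (58.0, 67.5, 142 and 72.6 CPM) and 2 (20.3, 23.4, 45.9 and 46.1 CPM), and in cluster 5 with chow 11 and HFD 1 almost level. The T cell markers were higher in both HFD mice in clusters 3 and 5 and lower in cluster 4, at no more than 15.2 CPM in these mice. The fibroblast markers were higher in both in clusters 1 and 3 and lower in clusters 4 and 6, at no more than 18.4 CPM, and the cycling markers were higher in cluster 3 and lower in cluster 6, at no more than 42.0 CPM. Mast cell markers were not analysed here. Among the genes that mark maturation, Ccr2 was lower in both HFD mice in clusters 2 (894, 1039, 617 and 635 CPM) and 3 (850, 831, 586 and 512 CPM). H2-Ab1 was higher in both HFD mice in clusters 2, 4, 5 and 6. Ly6c2 was higher in both HFD mice in clusters 4 (means 4.89 and 82.4 CPM) and 5 (5.16 and 50.1 CPM). C1qa, the gene that orders the clusters, was lower in both HFD mice of cluster 2 (1625, 1740, 1036 and 718 CPM) and higher in both HFD mice of cluster 5 (6817, 7482, 8136 and 9056 CPM) and cluster 6 (7326, 7959, 9185 and 8597 CPM). The order of the diets was measured again with mt- genes, immunoglobulin and plasma cell genes, Malat1 and Neat1 left out of the total. Cluster 3 then had 22115, 21068, 30947 and 32092 CPM, cluster 6 had 17996, 16765, 21534 and 22548 CPM and cluster 1 had 24580, 22611, 30203 and 27594 CPM. In cells with at least 2000 UMIs, cluster 3 had 20537, 19894, 29933 and 31266 CPM. Both HFD mice were above both chow mice in these values too. The part of depth, nuclear RNA, these markers and cell mixture within a cluster in the differences of single genes was not tested.

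Tests of single genes used the quasi-likelihood test of edgeR, with p-values adjusted by Benjamini-Hochberg over all genes tested in a cluster, at a false discovery rate (FDR) of 1%. Between 75 and 79 of the 82 members passed the filter on low counts in each cluster. The number of members called was 4 in cluster 3, all higher on HFD, against 0.582% of all 5325 genes tested there that were called higher and 1.20% called in either direction. In clusters 1, 2, 4, 5 and 6 it was 0 by edgeR's quasi-likelihood test and 0 by DESeq2, where 1.14%, 0.641%, 0.108%, 0.115% and 0.0806% of all genes were called higher and 1.53%, 1.41%, 0.108%, 0.173% and 0.141% in either direction. The likelihood-ratio test called 2 in cluster 2 and 9 in cluster 3, against 3.45% and 3.23% of all genes. The count in cluster 3 fell without HFD 1 or HFD 3, as did the share of all genes called. It fell without chow 11 and rose without chow 9, while that share rose in both. These fits leave 1 mouse in a diet, so only their member median is given, which ran from 0.469 to 0.560. The count was 0 when clustering used all genes (0.793% of all genes). It was also 0 when clustering left out diet-responsive genes (0.940%), in a single cluster matched to both 2 and 3. At an unadjusted p under 0.05 the quasi-likelihood test gave 26, 33, 2, 13 and 16 members in clusters 1, 2, 4, 5 and 6, where the shares of all genes were 14.7%, 15.4%, 7.61%, 7.89% and 7.76%, and 51 members in cluster 3 (15.5%). At an FDR of 10%, 5, 8 and 23 members were called higher in clusters 1, 2 and 3, against 2.62%, 2.45% and 2.54% of all genes. In cluster 1, 1 member was called lower, where 88 of 4382 genes were. Of the 8 in cluster 2, Usmg5 reached the detection filter through the HFD cells alone. In clusters 4, 5 and 6, 0 members were called higher, against 0.539%, 0.230% and 0.161%.

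The median log2 fold change (HFD minus chow) of the members tested was 0.35, 0.58 and 0.53 in clusters 1, 2 and 3 and 0.25, 0.28 and 0.40 in clusters 4, 5 and 6. These medians depended on the setting, above all in the P5-like clusters. In cluster 4 the median was 0.12 without chow 11 and -0.000162 with no filter on low counts, and with no filter it was 0.13 in cluster 5, 0.21 in cluster 6 and 0.97 in cluster 2. When clustering left out diet-responsive genes it was 0.45 in cluster 4 and 0.49 in a single cluster matched to both 5 and 6. With 8 clusters it was 0.16 in cluster 4. Marker gates in place of the P5-like clusters gave 0.74 and 34 of 77 members called (7.49% of all genes), over cells of which those of clusters 2 and 3 made up 4.69% on chow and 72.0% on HFD. Over all genes tested the medians lay between -0.05 and 0.07. The fold change was above 0 for 66 of 77, 71 of 77, 74 of 79, 53 of 75, 65 of 77 and 67 of 76 members in clusters 1 to 6, against 47.8%, 52.9%, 49.3%, 47.7%, 46.7% and 46.1% of all genes. Chow and HFD mice did not overlap, with HFD higher, for 54 of 77 members in cluster 1 (all genes, 26.2%), 62 of 77 in cluster 2 (32.0%) and 70 of 79 in cluster 3 (30.4%). The corresponding numbers were 28 of 75 in cluster 4 (16.6%), 38 of 77 in cluster 5 (18.1%) and 51 of 76 in cluster 6 (18.9%). These counts include members that reached the detection filter through the HFD cells alone, 2, 2 and 1 in clusters 1, 2 and 3. Through the chow cells alone it was 1, 2, 1 and 1 in clusters 3 to 6. The members that passed the filter are not all members, and no test was made of the list.

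**Figure D2:**
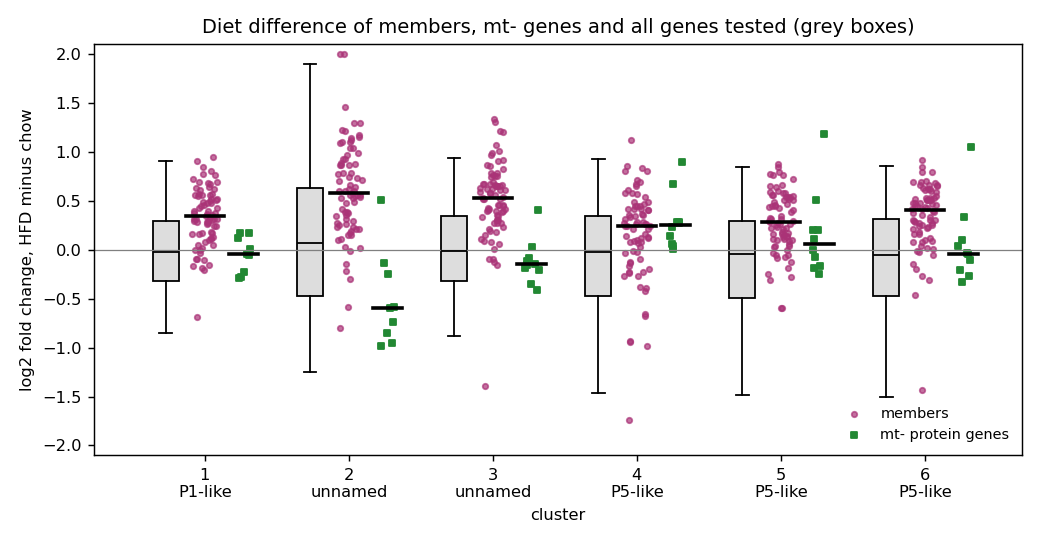
Log2 fold change (HFD minus chow) in each cluster for all genes tested (grey boxes, median, quartiles and 5th to 95th percentile), the members tested (1 point per gene) and the mt- protein genes tested (squares), with thick lines at the medians and points beyond 2 drawn at 2. The member medians run from 0.25 in cluster 4 to 0.58 in cluster 2 and the all-gene medians from -0.05 to 0.07.

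Of the 75 members tested in all 6 clusters, 44 had a fold change above 0 in all 6 (7.68% of the 3696 genes tested in all 6), and for 12 both HFD mice were above both chow mice in all 6 (1.35%). These 12 were Ndufa3, Ndufa7, Ndufa11, Ndufc2, Ndufs3 and Ndufs6 of complex I, Sdhb of complex II, Cox6c, Cox7a2, Cox7b and Ndufa4 of complex IV, and Atp5k of complex V. For 49 members this held in at least 4 clusters (9.74%). The clusters share mice and wells, so they are not independent. On the other side, Uqcrfs1, Cox7a2l, Cox7c and Atp5d had a fold change below 0 in at least 4 clusters.

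**Figure D3:**
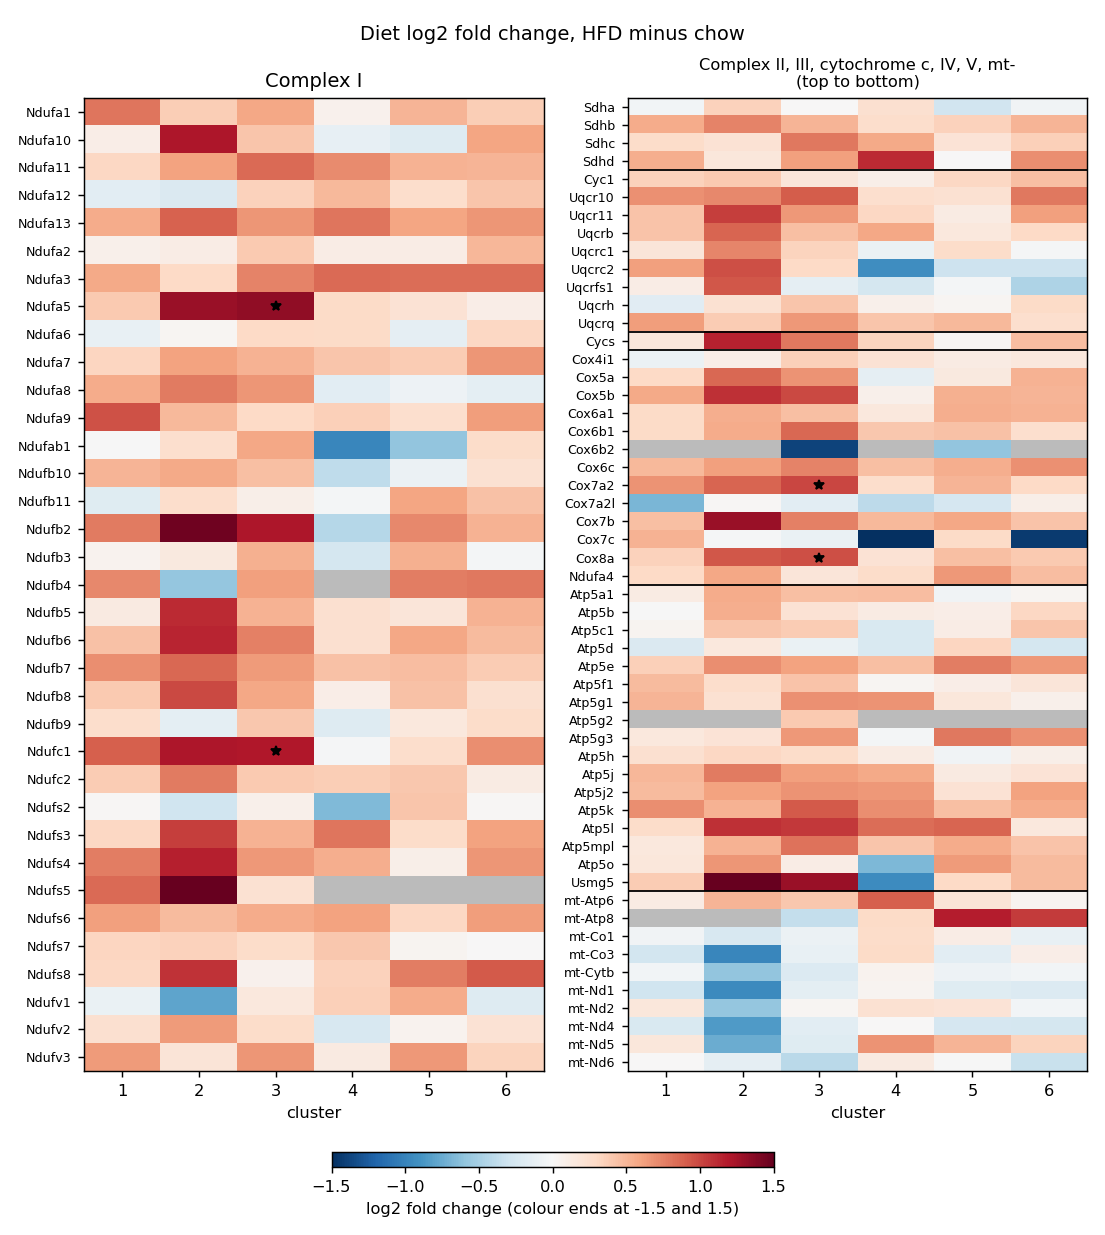
Diet log2 fold change of each member and mt- gene in each cluster (red, higher on HFD, blue, lower, grey, not tested, colour ends at -1.5 and 1.5), with stars at members called at an FDR of 1%. The 4 stars are all in cluster 3 (Ndufa5, Ndufc1, Cox7a2 and Cox8a), and most rows are red in clusters 1 to 3 while the mt- rows are mostly blue in cluster 2.

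Complex I supplied 2 of the 4 called members, both small accessory subunits. Ndufa5 was at 64.5, 74.1, 188 and 189 CPM in cluster 3, with no overlap between diets. Its log2 fold change was 1.33 (SE 0.23, FDR 0.00757, edgeR quasi-likelihood test). Its level in cluster 1 was 54.5, 81.7, 97.7 and 89.2 CPM, and in the P5-like clusters the diets overlapped, for example at 110, 93.5, 142 and 87.4 CPM in cluster 4. Ndufc1 was at 121, 111, 290 and 277 CPM in cluster 3 (log2 fold change 1.20, SE 0.21, FDR 0.00734, edgeR). In cluster 1 it was at 88.6, 110, 201 and 187 CPM, again without overlap, and did not pass the test (log2 fold change 0.90, FDR 0.0638, edgeR). Of the 35 complex I members tested in cluster 3, all 35 had a fold change above 0 (49.3% of all genes) and for 33 the diets did not overlap with HFD higher (30.4%).

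Ndufa9, a subunit at the junction of the peripheral and membrane arms, had the largest difference of complex I in cluster 1. It was at 71.6, 92.3, 169 and 162 CPM (log2 fold change 0.95, SE 0.27, FDR 0.0669, edgeR). The HFD mice were higher in that cluster, and also in clusters 2, 3, 5 and 6 by smaller amounts. Ndufs5 followed Ndufc1 in cluster 1 with 10.2, 10.7, 19.4 and 20.1 CPM, which rest on 3, 3, 23 and 23 UMIs. It reached the detection filter there through the HFD cells alone, so this difference is not read. In cluster 2 it had 0, 0, 31 and 29 UMIs, and 0 of the 134871 chow UMIs allows up to 22.2 CPM (3 counts over the group, counting error only) against 36.5 and 17.6 CPM in the HFD mice and 24.0 CPM in both pooled. Ndufs1, which carries iron-sulfur clusters of complex I, had 162 UMIs in all cells and passed the filter in no cluster. Ndufa11 illustrates the members whose diets never overlapped. It was at 110, 135, 232 and 246 CPM in cluster 3 and at 91.9, 97.9, 146 and 129 CPM in cluster 5, with log2 fold changes of 0.85 (FDR 0.0449, edgeR) and 0.52 (FDR 0.67, edgeR).

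Complex II has 4 subunits and links the tricarboxylic acid cycle to the chain. Sdhb, its iron-sulfur subunit, was at 188, 238, 324 and 333 CPM in cluster 1 (log2 fold change 0.56, SE 0.21, FDR 0.201, edgeR). The HFD mice were higher in all 6 clusters, down to 217, 189, 240 and 237 CPM in cluster 4. Sdha, the flavoprotein that oxidises succinate, showed no such order. It was at 153, 153, 165 and 147 CPM in cluster 1 and at 163, 150, 149 and 185 CPM in cluster 3, with log2 fold changes of -0.04 (SE 0.24) and 0.00 (SE 0.21). The membrane anchors Sdhc and Sdhd had log2 fold changes of 0.27 and 0.54 in cluster 1 and of 0.79 and 0.62 in cluster 3, and neither passed the test in any cluster (edgeR). For Sdhd the chow and HFD mice did not overlap except in cluster 5.

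In complex III the members with the largest differences in cluster 1 were Uqcr10, Uqcrq and Uqcrc2, all structural subunits. Uqcr10 was at 191, 174, 301 and 311 CPM there (log2 fold change 0.68, SE 0.21, FDR 0.0973, edgeR) and at 243, 205, 438 and 450 CPM in cluster 3 (0.90, SE 0.18, FDR 0.0192, edgeR). Uqcrq was at 436, 305, 599 and 599 CPM in cluster 1 (0.63, FDR 0.11, edgeR). The diets did not overlap in these values. Uqcrc2 was at 81.8, 81.7, 145 and 117 CPM in cluster 1 but at 117, 71.5, 60.0 and 25.0 CPM in cluster 4, where the HFD values rest on 8 and 2 UMIs. Uqcrfs1, the Rieske iron-sulfur protein, was at 402, 255, 311 and 320 CPM in cluster 3, so the HFD mice lay between the chow mice.

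Cycs encodes cytochrome c, the electron carrier between complexes III and IV that also triggers apoptosis when released. It was at 263, 266, 265 and 359 CPM in cluster 1, where only HFD 3 stood apart. In cluster 2 it was at 102, 175, 330 and 349 CPM (log2 fold change 1.15, SE 0.37, FDR 0.11, edgeR), and in cluster 3 at 102, 163, 254 and 250 CPM (0.79, SE 0.22, FDR 0.0887, edgeR). The diets did not overlap in clusters 2, 3 and 6, and overlapped in clusters 1, 4 and 5.

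Complex IV supplied the other 2 called members. Cox7a2, the widely expressed form of a small subunit with tissue-specific isoforms, was at 341, 342, 706 and 760 CPM in cluster 3 (log2 fold change 1.00, SE 0.16, FDR 0.00416, edgeR). The HFD mice were higher in all 6 clusters, and in cluster 1 it was at 385, 359, 637 and 599 CPM (0.67, FDR 0.0669, edgeR). Cox8a, another small membrane subunit, was at 558, 488, 1090 and 1084 CPM in cluster 3 (0.96, SE 0.16, FDR 0.00513, edgeR). Cox7b, a further small subunit, had its largest value in cluster 2, where it was at 264, 269, 624 and 733 CPM (1.29, SE 0.30, FDR 0.0194, edgeR). Cox5b, which binds zinc, was at 205, 167, 310 and 268 CPM in cluster 1 (0.57, FDR 0.201, edgeR). None of these overlapped between diets in the clusters given.

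Cox7a2l, a paralogue of Cox7a2 that takes part in assembling chain supercomplexes, ran the other way in cluster 1. It was at 1013, 1066, 749 and 601 CPM, with both HFD mice lower (log2 fold change -0.69, SE 0.19, FDR 0.0511, edgeR). In clusters 4 and 5 both HFD mice were lower too, at 555, 645, 442 and 462 CPM and at 571, 690, 560 and 515 CPM. In the other 3 clusters the diets overlapped, and in no cluster were both HFD mice higher. Cox4i1, the main form of a regulatory subunit, had log2 fold changes between -0.09 and 0.35 over the 6 clusters, and Cox6a1 between 0.16 and 0.55. Ndufa4 was higher in both HFD mice in all 6 clusters with log2 fold changes between 0.19 and 0.66. None of these 4 genes passed the test in any cluster. Cox7a1, the heart and muscle isoform, had 27 UMIs in all cells and passed the filter in no cluster. Cox7c rests on few UMIs, with 1 and 1 in the HFD mice of clusters 4 and 6.

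In complex V no member passed the test in any cluster (edgeR, 11 of 17 at an unadjusted p under 0.05 in cluster 3). Atp5k, a small subunit of the membrane part, had the largest difference in cluster 1 at 37.5, 67.5, 96.9 and 80.5 CPM (log2 fold change 0.69, SE 0.36, FDR 0.38, edgeR). Atp5j, a stalk subunit, was at 716, 462, 877 and 856 CPM there (0.50, FDR 0.244, edgeR). Both genes were higher in both HFD mice in cluster 1. Subunit c, the rotating ring, is encoded by 3 genes with the same mature protein. Atp5g1 was at 167, 209, 321 and 334 CPM in cluster 3 (0.69, SE 0.19, FDR 0.076, edgeR) and Atp5g3 at 144, 166, 253 and 271 CPM (0.65, SE 0.19, FDR 0.103, edgeR). Atp5g2 had 243 UMIs in all cells and was tested in cluster 3 alone, at 11.4, 10.9, 16.8 and 14.8 CPM. It reached the detection filter there through the HFD cells alone. Atp5g1 and Atp5g3 did not overlap between diets in cluster 3, and in cluster 1 Atp5g3 did, at 177, 88.8, 166 and 145 CPM. Atp5s had 91 UMIs and passed the filter in no cluster. Usmg5, a small subunit linked to ATP synthase dimers, had 0, 2, 100 and 248 UMIs in cluster 2. It entered the test there through the HFD cells alone, so no fold change is given. In cluster 3 it was at 64.5, 45.8, 161 and 121 CPM, with no overlap between diets (log2 fold change 1.30, SE 0.29, FDR 0.0319, edgeR).

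**Figure D4:**
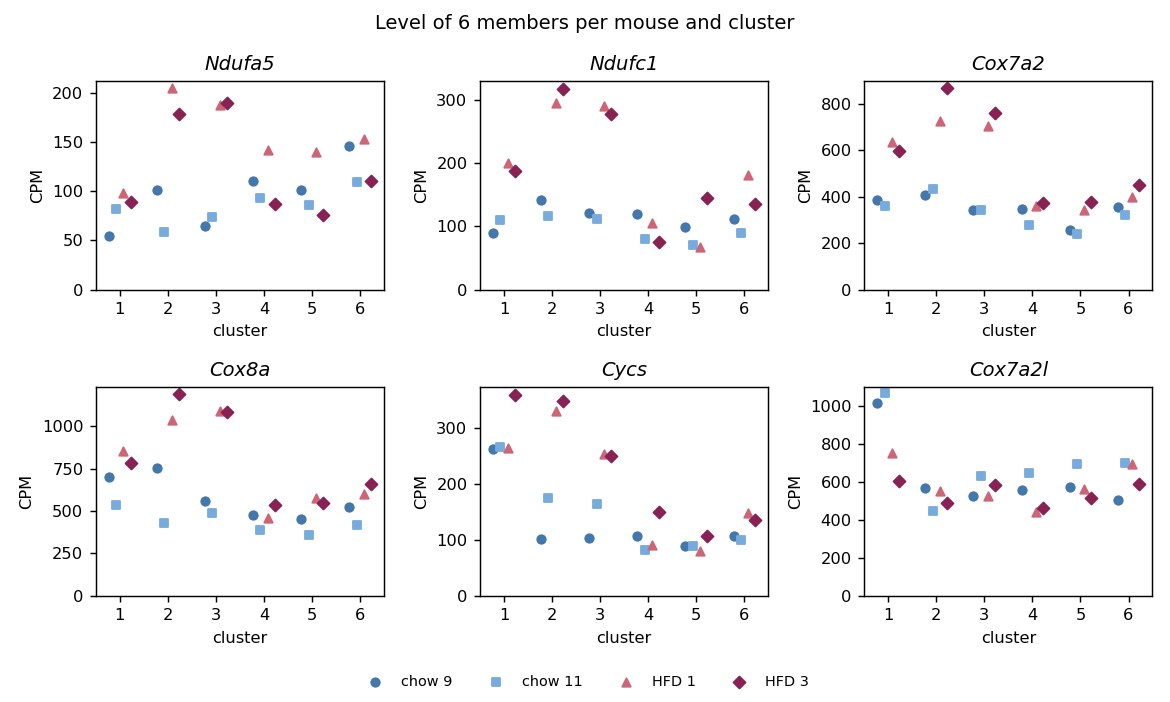
Level (CPM) of Ndufa5, Ndufc1, Cox7a2, Cox8a, Cycs and Cox7a2l in each cluster, 1 point per mouse. In cluster 3 the HFD mice of Cox7a2 stand at 706 and 760 CPM above the chow mice at 341 and 342 CPM, and in cluster 1 the HFD mice of Cox7a2l stand at 749 and 601 CPM below the chow mice at 1013 and 1066 CPM.

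The mt- protein genes served as a contrast, since they encode subunits of the same complexes but are transcribed inside the mitochondrion. The file held 12 of them, and mt-Co2 was not analysed here. They summed to 8083, 7377, 8253 and 6444 CPM in cluster 1 and to 7839, 7817, 8232 and 6748 CPM in cluster 3, so the diets overlapped. In cluster 2 they summed to 16799, 11198, 9913 and 7138 CPM, with both HFD mice lower. The median log2 fold change of the mt- genes tested was -0.05, -0.59, -0.15, 0.25, 0.05 and -0.04 in clusters 1 to 6, and 0 of the 9 or 10 tested passed the test in any cluster (edgeR). At an FDR of 10%, mt-Nd1 was called lower in cluster 2 (log2 fold change -0.95, SE 0.28, FDR 0.0842, edgeR), where 2.14% of all genes were, and none in the other clusters. Leaving out 1 mouse turned the sign in 4 clusters: cluster 1 had 0.09 without chow 9 and 0.12 without HFD 3, cluster 4 had -0.12 without HFD 1, cluster 5 had -0.00279 without chow 11 and -0.16 without HFD 1, and cluster 6 had 0.03 without chow 9 and 0.03 without HFD 3. In cluster 2 the median was -0.38 without chow 9, -0.99 without HFD 1 and -0.32 without HFD 3, and in cluster 3 it was -0.06 without chow 9, -0.26 without HFD 1 and -0.01 without HFD 3. At an unadjusted p under 0.05 the test gave at most 4, in cluster 2. The ratio of member UMIs to mt- UMIs was 2.63, 2.54, 3.63 and 4.63 in cluster 3, and both HFD mice had a higher ratio in every cluster except cluster 4. The authors removed cells with a mitochondrial share of 0% or over 7%, which bounds this contrast.

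Several mt- genes share sequence with nuclear copies, which limits how reads were assigned. Over the last 400 bases of the annotated transcripts, 100% of the 31-base words of mt-Co1, 99.7% of mt-Co3, 99.2% of mt-Atp6, 98.9% of mt-Nd4l and 98.1% of mt-Nd3 also occur in another gene, against 0% for mt-Nd1 and mt-Nd4 and 8.65% for mt-Cytb. The genes with little shared sequence had lower values on HFD in cluster 2, where mt-Nd1 was at 6338, 3935, 3026 and 2345 CPM, mt-Nd4 at 2661, 2125, 1595 and 1114 CPM and mt-Cytb at 5302, 3375, 3418 and 2388 CPM, with the diets overlapping for mt-Cytb alone among these 3. Among members the median share was 2.07%, with 36 members at 0% and 5 over 50% (Atp5l, Ndufs3, Atp5h, Uqcrb and Atp5g2). For the 4 called members it was 2.32% in Ndufa5, 8.09% in Ndufc1, 2.70% in Cox7a2 and 0% in Cox8a.

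The same comparison over all cells of each mouse includes the change in cell composition, and in these sums fewer cells of a type and less RNA per cell cannot be told apart. There, 41 of 77 members tested were called higher on HFD (7.67% of all genes, 16.2% in either direction) and 0 lower, with a median log2 fold change of 0.73. At an FDR of 10%, 67 were called higher (19.7% of all genes). For 76 the fold change was above 0 (48.6%), and for 76 the HFD mice were above the chow mice (50.4%). By complex, 15 of 35 members of complex I, 1 of 4 of complex II, 3 of 9 of complex III, Cycs, 8 of 12 of complex IV and 13 of 16 of complex V were called. Cox7b was at 230, 199, 526 and 625 CPM (log2 fold change 1.20, FDR 0.00144, edgeR) and Cycs at 111, 101, 256 and 295 CPM (1.16, FDR 0.00134, edgeR). Cox7a2l, at 580, 688, 607 and 554 CPM, was the only member tested with a fold change below 0 (-0.35, FDR 0.0874, edgeR). The mt- genes had a median of -0.33, with 3 called lower at an FDR of 10% (21.1% of all genes), and mt-Co1 had the lowest FDR among them (-0.64, FDR 0.0283, edgeR).

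The second question was how these genes differ along maturation, from P1-like to P5-like cells of the same mouse. Members summed to 23937, 21954, 29535 and 27016 CPM in P1-like cells and to 15834, 14375, 18158 and 18863 CPM in P5-like cells. The share was lower in the P5-like cells of all 4 mice, with a ratio of 0.66 ± 0.03 (SD, n = 4 mice). Malat1 moved the opposite way in all 4, by a ratio of 2.43 ± 0.36, and the mt- genes by 1.16 ± 0.03, while Neat1 was lower in the P5-like cells of all 4 (ratios 0.365 to 0.667). Markers of other cell types also moved between the classes in all 4 mice. The 3 of 4 B and plasma cell markers in the file summed to between 87.5 and 286 CPM in P1-like and between 160 and 2298 CPM in P5-like cells, with Cd79a at 0 in clusters 1 and 5. The 2 of 4 neutrophil markers in the file (S100a8 and Csf3r) summed to between 58.0 and 142 CPM in P1-like and between 11.8 and 27.2 CPM in P5-like cells, with S100a8 at 0 in clusters 4 and 6. The 4 epithelial markers summed to between 0 and 13.1 CPM in P1-like and between 2.48 and 23.8 CPM in P5-like cells and were higher in the P5-like cells of all 4. The part of these markers in the member values was not tested. The ratio differed between complexes: it was 0.37 ± 0.03 for cytochrome c, 0.61 ± 0.03 for complex V, 0.63 ± 0.04 for complex III, 0.64 ± 0.03 for complex IV, 0.73 ± 0.06 for complex I and 0.85 ± 0.07 for complex II.

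In the test per gene with mouse as a block, 22 of 77 members were called lower in P5-like cells (14.0% of all genes) and 3 higher (14.2%), with a median log2 fold change of -0.30 against 0.01 over all genes. The clusters were defined from the other genes of the same cells, so only members and mt- genes are read here. By CPM, 56 members were lower in all 4 mice (36.2% of all genes). Without chow 11 the number called was 11, of which 10 of the 78 tested were lower against 10.1% of all genes, a share near the background. With DESeq2 it was 15, all lower (11.1% of all genes). With library size alone, 45 members were called lower (22.6% of all genes) and 0 higher, the member median was -0.55 and the median of all genes was -0.24. Complex V had 9 of 16 members called lower, complex III 4 of 9, complex IV 4 of 13 and complex I 4 of 34, with 3 called higher in complex I. Complex II had none of 4 called, with a median of -0.03.

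Cycs had the largest decrease. It was at 263, 266, 265 and 359 CPM in P1-like and 97.6, 89.7, 108 and 126 CPM in P5-like cells (log2 fold change -1.21, SE 0.14, FDR 2.24e-06, edgeR). In complex III, Uqcrfs1 went from 395, 348, 409 and 429 CPM to 221, 128, 133 and 170 CPM (-1.05, SE 0.14, FDR 1.76e-05, edgeR). In both genes every P5-like value lay below every P1-like value. In complex IV, Cox7b fell from 419, 376, 559 and 582 CPM to 204, 185, 297 and 255 CPM (-0.79, FDR 4.8e-05, edgeR). In complex V, Atp5l fell from 143, 117, 190 and 141 CPM to 77.5, 41.1, 99.2 and 74.9 CPM (-0.81, FDR 0.00137, edgeR), although 79.7% of its end words are shared with other genes. Atp5c1, the central stalk subunit, fell from 685, 728, 792 and 733 CPM to 350, 354, 390 and 398 CPM (-0.74, FDR 3.97e-05, edgeR). In complex I, Ndufb3, a membrane-arm subunit, fell from 232, 181, 250 and 196 CPM to 114, 99.7, 127 and 106 CPM (-0.70, FDR 0.000746, edgeR). All of these were lower in all 4 mice.

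The 3 members called higher were all of complex I. Ndufa12 went from 81.8, 85.2, 75.0 and 81.4 CPM to 111, 101, 167 and 98.7 CPM (0.83, SE 0.19, FDR 0.00268, edgeR), Ndufa5 had a log2 fold change of 0.71 (FDR 0.00751) and Ndufc2 of 0.42 (FDR 0.00764). Ndufa12 and Ndufc2 were higher in all 4 mice by CPM, and Ndufa5 in 3. With library size alone these log2 fold changes were 0.57, 0.46 and 0.17, all above 0, and none was called. The isoform genes Atp5g1 and Atp5g3 had log2 fold changes of -0.20 and -0.01, Cox4i1 was called lower at -0.66 (FDR 0.000143, edgeR), and Cox6a1 (-0.33), Cox7a2 (-0.28), Cox7a2l (-0.30) and Ndufa4 (-0.27) were lower in all 4 mice by CPM without passing the test. Sdha, Sdhb, Sdhc and Sdhd had 0.01, -0.07, 0.30 and -0.10.

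Of the 10 mt- genes tested, 6 were called higher in P5-like cells and none lower. These were mt-Nd5 (log2 fold change 0.77), mt-Nd2 (0.68), mt-Co1 (0.66), mt-Nd1 (0.49), mt-Cytb (0.47) and mt-Atp8 (1.59). With 350 UMIs in all cells, mt-Atp8 did not pass the filter in the fit of clusters 2 and 3 with cluster 1. It entered here through the P5-like cells, so its rise is not read. mt-Nd1 went from 2727, 2362, 2401 and 1936 CPM to 3027, 2746, 2998 and 2372 CPM, higher in all 4 mice. mt-Nd4 had 0.35 (FDR 0.0117, edgeR), mt-Atp6 0.14, mt-Nd6 0.11 and mt-Co3 -0.25. With library size alone the mt- median went from 0.48 to 0.23, mt-Nd2, mt-Nd5 and mt-Atp8 were called, and mt-Nd6 and mt-Atp6 changed sign.

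**Figure D5:**
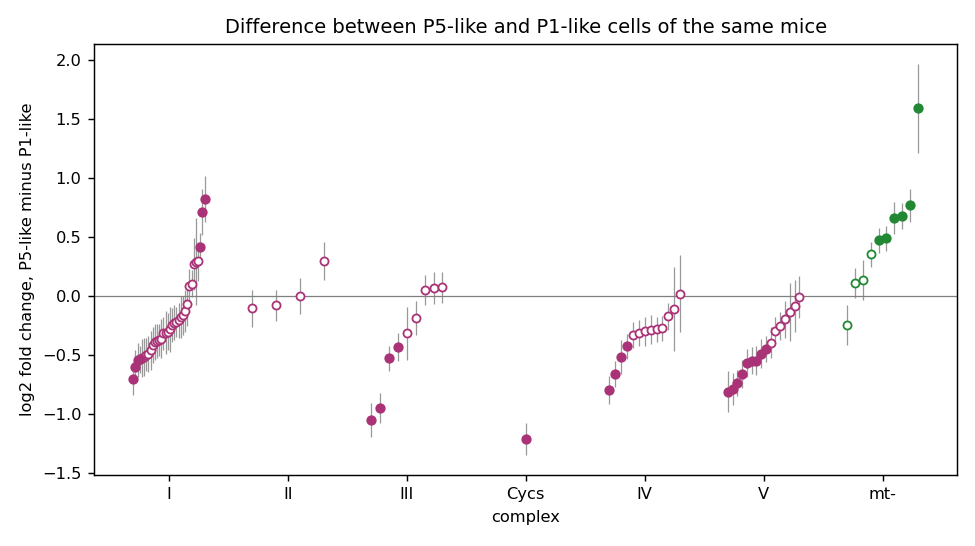
Log2 fold change of P5-like minus P1-like cells with its SE (bars) for each member by complex and for the mt- genes, filled where called at an FDR of 1%. Cycs stands lowest at -1.21, complex V lies below 0 throughout with a median of -0.47, and the mt- genes lie mostly above 0 with a median of 0.48.

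Whether the diet difference itself differed between stages was tested as an interaction. Between P5-like and P1-like cells, 0 of 77 members passed at an FDR of 1% (edgeR, 0.631% of all genes), 4 had an unadjusted p under 0.05 (8.06% of all genes), 44 had a difference below 0 (52.0%), and the median difference of the log2 fold changes was -0.02. Between clusters 2 and 3 together and the P5-like clusters, 0 passed (0.695% of all genes), 1 (Ndufa5, named after its value was seen) had an FDR under 10% (0.0856, edgeR, where 2.13% of all genes did), 14 had an unadjusted p under 0.05 (10.2% of all genes), 16 had a difference below 0 (48.8%) and the median was 0.23 against 0.02 over all genes. Between clusters 2 and 3 and cluster 1, 0 passed (0.0208%), 9 had an unadjusted p under 0.05 (10.1% of all genes), 19 had a difference below 0 (49.6%) and the median was 0.19. These are tests of single genes, and the difference between the ratios of the summed members was not tested.

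Other genes of the pathway were taken from lists of assembly factors, the ATP synthase inhibitor, the tricarboxylic acid cycle with pyruvate entry, fatty acid oxidation, mitochondrial carriers and porins, and regulators, 117 genes in all. Within clusters, 0 of the 72 to 90 tested passed between diets (edgeR), with 5, 10, 11, 2, 4 and 6 at an unadjusted p under 0.05 in clusters 1 to 6. These were out of 73, 76, 90, 72, 83 and 78 tested. All genes gave 643 of 4382, 695 of 4523, 827 of 5325, 353 of 4641, 411 of 5211 and 385 of 4963. At that p the share of these lists lay above that of all genes in no cluster. The fold change was above 0 for 41, 57, 63, 34, 48 and 41 of them in clusters 1 to 6. The shares of all genes were 47.8%, 52.9%, 49.3%, 47.7%, 46.7% and 46.1%. Both HFD mice were above both chow mice for 25, 39, 41, 8, 15 and 21, against 26.2%, 32.0%, 30.4%, 16.6%, 18.1% and 18.9% of all genes. Over all cells at an FDR of 1%, 6 of 82 (7.32%) were called higher and 2 (2.44%) lower, against 7.67% and 8.58% of all genes. Neither share lies above the background at that threshold. At an FDR of 10%, 26 were called higher and 5 lower, against 19.7% and 21.1% of all genes. The fold change was above 0 for 62 of the 82 (all genes, 48.6%), and both HFD mice were above both chow mice for 60 (all genes, 50.4%). The 8 genes called at an FDR of 1% are named as called genes of these lists. Mdh2, the mitochondrial malate dehydrogenase, was at 222, 195, 508 and 557 CPM (log2 fold change 1.13, FDR 0.00121, edgeR). Slc25a5, an ADP/ATP carrier, had 0.91, Suclg1, a subunit of succinyl-CoA ligase, 0.84, Slc25a20, the carnitine carrier, 0.81, and the assembly factors Cox17, a copper chaperone, and Coa5 0.98 and 0.80. Idh2, the mitochondrial NADP-dependent isocitrate dehydrogenase, had -0.81 and Myc, a regulator of growth and mitochondrial genes, -1.18. The diets did not overlap in any of these 8.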

How the data were processed

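Colonic monocytes and macrophages of 4 mice were profiled with the 10x 3′ v2 kit. The authors pseudo-aligned reads with kallisto 0.46.0 and BUStools 0.39.2 (Ensembl 97, mm10), removed low-quality cells and cells annotated as other types, and deposited unnormalized UMI counts per gene and cell. From these counts, cells were scaled with scran 1.30.0 and divided by Ward clustering on 8 principal components into 6 clusters. Scrublet (scanpy 1.11.5) marked 38 cells (0.701%) as doublets, which were kept. UMIs were summed per mouse and cluster and tested with edgeR 4.0.16 (TMM, glmQLFTest) in R 4.3.3, on genes above 1 CPM in at least 2 sums and with a UMI in at least 5% of cells. DESeq2 1.42.0, the likelihood-ratio test, other scalings, other clusterings, marker gates and leaving out each mouse were alternatives. The mouse gave both classes in the maturation comparison and was its block, as the labels name the mouse. Diets share no mouse, so no block applies there. Levels are counts per 1000000 UMIs of a sum, and intervals from counts cover counting error only. Members and lists were chosen with earlier results of these data known. The genes named are the members called between diets, the 3 per complex with the largest diet difference in cluster 1, those per complex with the largest called rise and fall from P1-like to P5-like, isoform genes, Cycs, Sdha to Sdhd, mt- genes, untested members and called genes of the pathway lists. Values of Ndufa11, Uqcrfs1, Cox7b, Cox7c, Usmg5, Atp5c1 and the members listed by their order over clusters were added after they were seen. The tests were checked on simulated data. The annotation used for shared sequence was GENCODE M21.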

Additional observations from a re-analysis of the deposited data

How the results depend on the processing

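The counts of members called between diets depended on the setting more than the direction did. Leaving out each mouse in turn changed the counts in clusters 1, 2 and 3, where the lone mouse was assumed to vary like the others. In clusters 1 and 2 they rose only without a chow mouse, as did the share of all genes called. In cluster 3 the count fell without HFD 1, HFD 3 or chow 11 and rose without chow 9. These counts are not given, because such fits leave 1 mouse in a diet. An FDR of 10%, chosen after seeing the data, called 5, 8 and 23 members higher in clusters 1, 2 and 3, against 2.62%, 2.45% and 2.54% of all genes. It called 1, 0 and 0 lower there, where 88 of 4382, 97 of 4523 and 157 of 5325 genes were called lower. In cluster 3 the count of 4 became 9 with the likelihood-ratio test, 9 with library size alone and 14 with no filter. It was 0 when clustering used all genes (0.793% of all genes). Clustering without diet-responsive genes also gave 0 (0.940%), in a single cluster matched to both 2 and 3. In cluster 2 the count of 0 became 2, 1 and 16 with the likelihood-ratio test, library size alone and no filter. The shares of all genes called in these 3 settings were 3.23%, 1.71% and 1.30% in cluster 3 and 3.45%, 2.08% and 1.68% in cluster 2. Marker gates in place of clusters 4, 5 and 6 gave 34 members called (7.49% of all genes) with a median of 0.743 and an mt- median of -0.178. That gate held cells of clusters 2 and 3 as 4.69% of chow and 72.0% of HFD cells. The median over members with no filter was 0.485, 0.967, 0.666, -0.000162, 0.128 and 0.212 in clusters 1 to 6, and in cluster 4 that value is at 0. Other medians were 0.618 in cluster 3 with library size alone, and 0.584, 0.360 and 0.565 in clusters 3, 5 and 6 when clustering used all genes. Without diet-responsive genes they were 0.447 in cluster 4 and 0.488 in a single cluster matched to both 5 and 6. Without each mouse they ran from 0.469 to 0.560 in cluster 3, 0.123 to 0.316 in cluster 4 (0.246 with all mice), 0.230 to 0.371 in cluster 5 and 0.321 to 0.450 in cluster 6. The mt- medians without each mouse ran from -0.212 to 0.119 in cluster 1, -0.988 to -0.316 in cluster 2, -0.117 to 0.435 in cluster 4, -0.158 to 0.264 in cluster 5 and -0.359 to 0.0339 in cluster 6, so that the sign in clusters 1, 4, 5 and 6 rests on single mice. They were -0.352 and 0.0577 in clusters 3 and 4 when clustering used all genes. Without diet-responsive genes they were -0.439, in a single cluster matched to both 2 and 3, and 0.045 in cluster 4. For maturation, the count was 25 of 77 members (28.2% of all genes called in either direction, 14.8% to 33.6% over the alternatives). It became 45 of 77 with library size alone (33.6%). It was 15 of 77 with DESeq2 (23.5%), 14 of 77 with no replicate block (25.6%) and 16 of 77 without diet-responsive genes (25.2%). It was 10 of 78 in the 2 HFD mice alone (21.1%). Without each mouse it was 11 to 19, with 11 of 78 without chow 11 (21.6%). The member share lay above that of all genes in the main setting, with library size alone and when HFD 1 or HFD 3 was left out. It was also above with the likelihood-ratio test (28 of 77, 33.1%), no filter (19 of 82, 14.8%) and the 2 chow mice alone (23 of 77, 23.2%). The same held with DESeq2-type size factors in edgeR and without doublets. The member share lay below with DESeq2, no block, the HFD mice alone and without chow 9 or chow 11. It was also below when clustering used all genes or left out diet-responsive genes. Lower calls alone were 15 with DESeq2 (11.1%) and 13 with no block (11.9%). They were 9 in the HFD mice alone (10.4%) and 10 without chow 11 (10.1%). The interaction count between P5-like and P1-like cells was 0 in all 8 alternatives, and no alternatives were run for the interactions with clusters 2 and 3. The cause of these changes was not tested. Several settings gave no value for having under 20 cells in a mouse: cluster 2 with all genes, with 8 clusters and at 2000 UMIs, clusters 4 and 6 at 2000 UMIs, and the marker gate of P1-like cells. The HFD sums of the P5-like clusters, at 80073 to 176384 UMIs, limit what can be seen there.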
